A study of Mus musculus with 36 samples.

Results

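On day 0, most MBD3 peaks of mouse embryonic stem cells overlapped a CTCF peak, and the summits of such pairs were a median of 12 bp apart. Chromatin immunoprecipitation followed by sequencing (ChIP-seq) had been done with an antibody to MBD3 and with an antibody to CTCF, in 3 samples for each antibody. The authors pooled those 3 samples before they called peaks, so each protein has a single list for day 0. The members described here are the 57878 day 0 intervals on chromosomes 1 to 19, X and Y, out of 182783 in the 8 lists of the series. They were split by an overlap of at least 1 bp. Of 10464 MBD3 intervals, 9298 overlapped a CTCF interval (88.9%) and 1166 did not (MBD3 alone). Of 47414 CTCF intervals, 9230 overlapped an MBD3 interval (19.5%) and 38184 did not (CTCF alone).

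The study's 36 samples are MBD3, CTCF and input libraries from days 0, 2, 4 and 6, in 12 groups of 3. The labels name the day 0 cells as mouse embryonic stem cells, and the file names call them WT. They were grown in medium with serum replacement and leukaemia inhibitory factor on irradiated mouse fibroblast feeders, so the chromatin may include that of feeder cells, and peak lists hold no measure by which the cell type could be checked. Any treatment that separates the days is not stated in the labels. With 1 pooled list per protein there was no spread between replicates and no test between groups, and the 95% intervals below (exact binomial for shares, order statistics for medians) cover counting error only. Depth per sample is not given by the lists; the fragments stacked at a summit, as a whole number, and the background the peak caller expected there were recovered from its fold and p-value.

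CTCF is a zinc finger protein that binds a long DNA motif and, with cohesin, marks insulators and the anchors of chromatin loops. MBD3 is a subunit of NuRD, a complex that joins a nucleosome remodeller of the CHD family to histone deacetylases and acts at promoters and enhancers of embryonic stem cells. MBD3 differs from its relative MBD2 in that it binds methylated DNA poorly, and it does not recognise a DNA sequence of its own. NuRD at CTCF sites is the subject named in the title of the series.

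Sequences under summits were read from a RefSeq table of promoters (GRCm38.p6, the assembly of mm10), which holds 250 bases before to 50 after a transcription start. Shown are the 3 promoters of highest fold in each class whose window holds the summit, 5′ to 3′ on the strand of the gene, up to 60 bases either side of the summit and upstream of the annotated gene only. Capitals mark matches, on either strand, to a short form of the CTCF motif that reads CC, any 3 bases, AG, any 2 bases and GGC. Rapgef1 (chr2:29619611-29619719, plus strand), Nipsnap2 (chr5:129724929-129725015, plus strand) and Vps36 (chr8:22192747-22192832, plus strand) carried both proteins, with MBD3 folds of 29.8, 28.6 and 21.5 and CTCF folds of 42.9, 42.5 and 46.
Rapgef1: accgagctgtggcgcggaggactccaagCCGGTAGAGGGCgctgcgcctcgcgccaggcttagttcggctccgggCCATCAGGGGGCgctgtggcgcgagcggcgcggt
Nipsnap2: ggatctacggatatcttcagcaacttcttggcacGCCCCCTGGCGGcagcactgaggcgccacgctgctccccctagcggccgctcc
Vps36: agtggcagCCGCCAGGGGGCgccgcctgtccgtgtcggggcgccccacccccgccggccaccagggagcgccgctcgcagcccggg
All 3 stretches held a match, 20.5, 20.5 and 46.5 bp from the MBD3 summit, and the summits of MBD3 and CTCF lay 5, 12 and 5 bp apart. Rapgef1 encodes a guanine nucleotide exchange factor, Nipsnap2 a mitochondrial protein and Vps36 a subunit of the ESCRT machinery of endosomes.

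The promoters with MBD3 alone had lower folds, 5.75 at Bsn (chr9:108190420-108190484, minus strand), 4.36 at Cmtm7 (chr9:114781994-114782038, minus strand) and 3.90 at Sox21 (chr14:118237118-118237238, minus strand). Bsn encodes a scaffold protein of the presynaptic zone and Sox21 a transcription factor of the nervous system.
Bsn: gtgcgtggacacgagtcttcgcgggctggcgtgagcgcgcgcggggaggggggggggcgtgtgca
Cmtm7: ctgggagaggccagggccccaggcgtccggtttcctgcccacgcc
Sox21: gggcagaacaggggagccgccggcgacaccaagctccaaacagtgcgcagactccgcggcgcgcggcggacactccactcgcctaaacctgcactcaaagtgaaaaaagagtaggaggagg
None of these 3 stretches held a match, and the Cmtm7 summit lay 15 bp past the start, outside the stretch. The promoters with CTCF alone had CTCF folds of 21.3 at Pou2f1 (chr1:166002750-166002828, minus strand), 20.9 at Rpl5 (chr5:107900427-107900507, plus strand) and 20.8 at Ythdf2 (chr4:132212257-132212353, minus strand), which encode a POU domain transcription factor, a ribosomal protein and a reader of methylated adenosine in RNA.
Pou2f1: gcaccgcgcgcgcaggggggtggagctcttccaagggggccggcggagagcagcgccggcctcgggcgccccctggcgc
Rpl5: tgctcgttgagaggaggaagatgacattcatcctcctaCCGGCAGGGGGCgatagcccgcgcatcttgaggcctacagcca
Ythdf2: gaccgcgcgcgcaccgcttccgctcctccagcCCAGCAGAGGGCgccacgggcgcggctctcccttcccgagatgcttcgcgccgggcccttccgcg
Rpl5 and Ythdf2 held a match 16.5 and 22.5 bp from the CTCF summit, and Pou2f1 held none. These promoters show that a strong CTCF peak over a motif at a promoter was present both with and without an MBD3 peak.

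Over all promoters under a summit, the motif had its highest share where both proteins lay. A match was found in 43.7% of the 666 promoters that held an MBD3 summit of a peak with CTCF (39.9 to 47.6), in 25.6% of the 39 that held the summit of an MBD3 peak alone (13.0 to 42.1) and in 25.4% of the 1585 that held the summit of a CTCF peak alone (23.2 to 27.6). A match was found in 9.88% of all 21263 promoters of protein-coding genes listed by RefSeq, and in 7.32% of the 18906 without a day 0 summit. Strength bore on this. In the 3 highest deciles of CTCF fold 49.0% of the promoters with MBD3 (44.7 to 53.4, n = 520) and 51.7% of those without (43.4 to 59.9, n = 151) held a match. In the 3 lowest deciles the shares were 14.3% with MBD3 (6.75 to 25.4, n = 63) and 19.5% without (17.2 to 22.0, n = 1097). These intervals overlap in both ranges of fold, and the difference itself was not tested. The dinucleotide CpG, counted separately from the motif and free to overlap it, had a median of 24 per promoter with both proteins, 26 with MBD3 alone, 25 with CTCF alone and 11 without a summit. Where a promoter held 1 match, the median distance from its centre was 25 bp for MBD3 summits of peaks with CTCF (21.5 to 29.5, n = 260), 18.5 bp for the CTCF summits of those peaks (15.5 to 20.5, n = 261) and 27.5 bp for summits of CTCF alone (22.5 to 33.5, n = 362). A match is a description of these letters and not of a bound site.

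The overlap was close in place. The share of MBD3 peaks with a CTCF peak was 88.9% (88.2 to 89.5) and the share of CTCF peaks with an MBD3 peak 19.5% (19.1 to 19.8). That second share depends on the length of the lists: it was 62.8% with the CTCF list at the length of the MBD3 list and 9.93% at a -log10 q of 10 or more in both lists. The 9303 overlapping pairs rarely touched only at their edges: the MBD3 interval lay wholly inside the CTCF interval in 91.8% of pairs and was the narrower in 97%, and in 7 pairs the overlap was under 20 bp, with 6 bp as the smallest. On the other side of the limit, 69 of the 1166 MBD3 peaks alone lay within 500 bp of the edge of a CTCF peak. The summits of a pair were a median of 12 bp apart, with quartiles at 5 and 25 bp. They were within 10 bp of each other in 44.5% of pairs, within 50 bp in 89.3% and at the same base in 240 pairs. The MBD3 summit lay at the higher genome coordinate in 50.9% of pairs and at the lower in 46.5%, with a signed median of 1 bp (0 to 1). CTCF motifs can lie on either strand, so this split cannot show whether MBD3 keeps to a side of the motif. In promoters with 1 match, the median position along the motif was 4.5 bp from its centre for MBD3 summits of peaks with CTCF (-2.5 to 10.5, n = 260). For CTCF summits of peaks with MBD3 it was 6.5 bp (3.5 to 8.5, n = 261).

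The distance fell with the number of fragments that placed the summit. In the 4 quartile groups of MBD3 fragments over the summit, low to high, the median distance was 21, 14, 10 and 8 bp, and in those of CTCF fold it was 23, 12, 11 and 9 bp. For comparison with repeat placement of a summit of the same protein, 5384 pairs had both proteins on day 0 and day 6. There the MBD3 summit of day 0 was a median of 10 bp from the CTCF summit of day 0 and 11 bp from the MBD3 summit of day 6, while CTCF summits of days 6 and 0 were 5 bp apart. On day 6 the MBD3 and CTCF summits of these pairs were a median of 8 bp apart. The distance between the proteins on day 0 was thus no larger than that between MBD3 summits of separate days at these sites. The latter distance holds the placement error of MBD3 on both days, while the former holds that of MBD3 on day 0 only. This comparison therefore cannot show whether the proteins lay farther apart than placement error alone would put them. Pairs of the same base with the highest MBD3 folds lay near Gtf3c5, a subunit gene of transcription factor IIIC (MBD3 fold 24.7, CTCF fold 33.1), inside H2-DMa, a peptide loading factor of MHC class II (18.4 and 31.1), at Lsm11, a histone mRNA processing gene (17.6 and 48.3), and near the transcription factor gene Rfx7 (17.3 and 26.8).

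**Figure D1:**
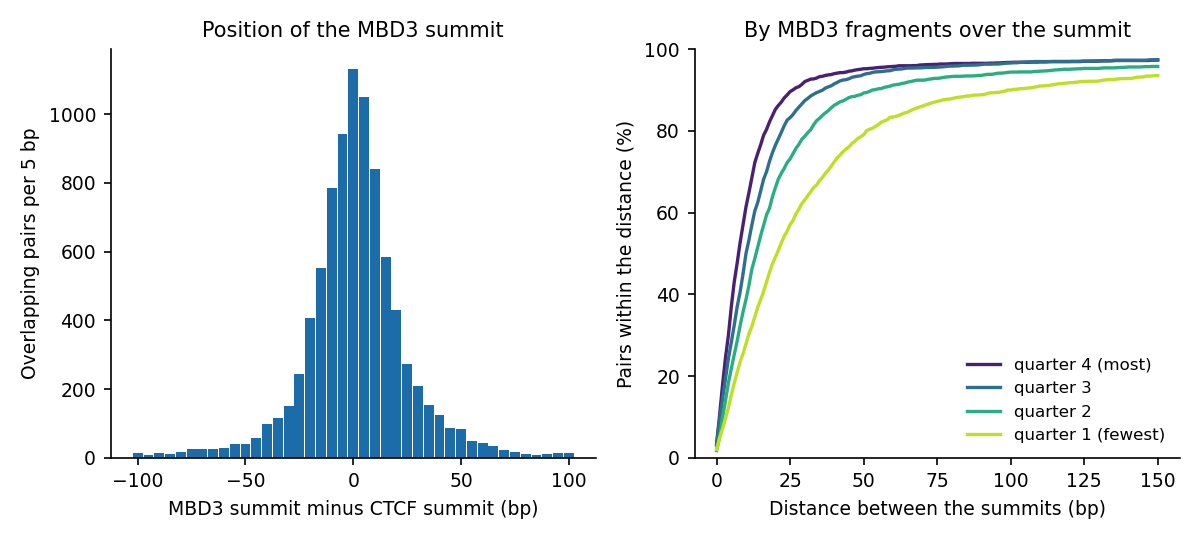
Left, number of overlapping MBD3 and CTCF pairs per 5 bp of the MBD3 summit minus the CTCF summit (bp, genome coordinates, not turned to the strand of the motif), day 0, shown between about -100 and 100 bp. Right, share of pairs (%) whose summits lie within the distance on the x axis (bp), with a line for each quartile group of the MBD3 fragments over the summit; the median distance was 8 bp in the group with the most fragments and 21 bp in the group with the fewest.

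Summits over 500 bp apart were found in 64 pairs (0.688%). Each interval was placed by its summit of highest -log10 q, and lesser summits of the same interval were not compared here. The 90th percentile of the distance was 360 bp where an interval had several summits and 44 bp where both had 1. The largest distance, 2491 bp, was near Gemin2, a gene of the SMN complex that assembles splicing particles, in a CTCF interval from 59034999 to 59039415 on chromosome 12. Next came Nkx2-2, a homeobox gene of the ventral neural tube, with 1066 bp, Rcan2, a regulator of calcineurin, with 999 bp, and the sortilin family receptor gene Sorcs2 with 993 bp. At Sorcs2 a CTCF interval of fold 23.0 (chromosome 5, 36397500 to 36399401) held 2 MBD3 intervals of folds 2.58 and 2.92, 591 and 993 bp from its summit. Of all CTCF intervals 71 held 2 MBD3 intervals and 1 held 3.

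CTCF peaks with MBD3 were the strong ones. Their median CTCF fold was 12.7, with 168 fragments over the summit and a width of 424 bp, against a fold of 5.75, 48 fragments and 286 bp for CTCF alone. By deciles of CTCF fold, low to high, an MBD3 peak was present at 6.45, 3.31, 2.78, 2.47, 4.75, 9.64, 17.3, 28.8, 47.7 and 71.5% of the CTCF peaks. The share was lowest in the decile from fold 4.57 to 5.56 and higher again in the weakest decile, below fold 2.80. The expected background at the site moved with the share at equal fold. In the top decile, MBD3 was present at 42.3, 64.1, 79.3 and 93.0% of the CTCF peaks from the lowest to the highest quartile group of background, and in the decile from 5.56 to 6.67 at 1.54, 2.80, 5.83 and 14.1%. At equal fold a higher background goes with more fragments, with medians of 85, 135, 202 and 362 in the top decile, and which of them the share follows was not tested. CTCF intervals with several summits also carried MBD3 more often, 33.9% of those with 2 and 49.0% of those with 3, against 18.5% of those with 1.

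**Figure D2:**
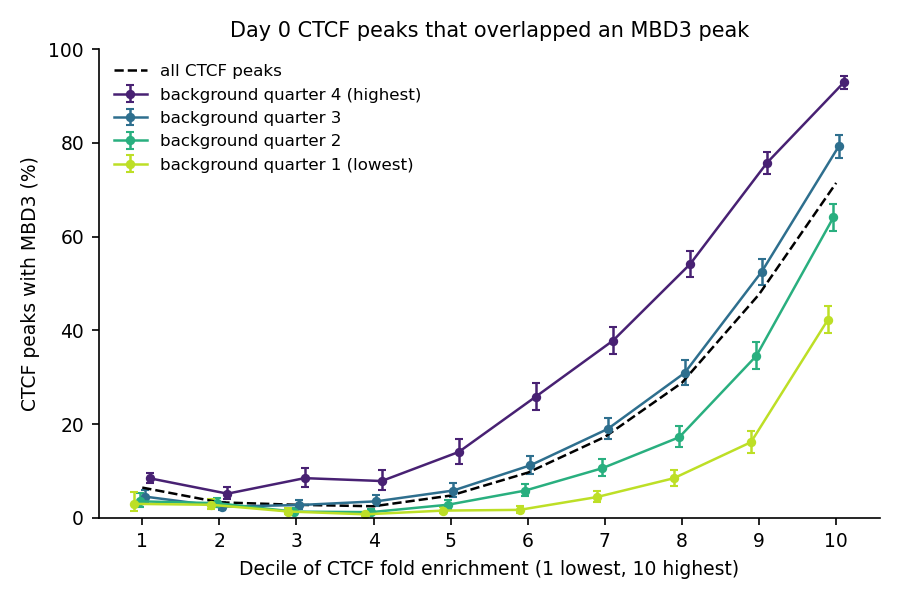
Share of day 0 CTCF peaks (%) that overlapped an MBD3 peak, by decile of CTCF fold enrichment, with a line for each quartile group of the expected background at the summit and a dashed line for all CTCF peaks; bars are exact 95% binomial intervals. In the top decile the share was 93.0% in the highest group of background and 42.3% in the lowest.

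The share also differed between chromosomes, with the background moving alongside at the ends of the autosomal and X range, and that background's part in it was not tested. On chromosome X 10.6% of 1147 CTCF peaks carried MBD3 (8.91 to 12.6), and the median CTCF background and fragments there were 3.77 and 34. On chromosome 8 the share was 24.2% of 2758 (22.6 to 25.9), with a background of 12.4 and 76 fragments, while the median CTCF fold was much the same on X (6.65) and 8 (6.34). In the top decile of fold MBD3 was present at 47 of 93 CTCF peaks on X and at 226 of 273 on chromosome 8. The other autosomes lay between 17% (chromosome 14) and 22.3% (chromosome 19), and Y had 16 of 37. Of the MBD3 peaks 76.7% on X and 89.8% on chromosome 8 overlapped CTCF.

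From the side of MBD3, the share with CTCF was higher at higher fold, but not throughout at higher fragment counts. The median MBD3 fold was 4.17 in CTCF peaks (4.09 to 4.21) and 3.17 alone (3.10 to 3.23), with 31 and 20 fragments over the summit and widths of 224 and 219.5 bp. The share of MBD3 peaks with CTCF was 68.3% in the lowest decile of MBD3 fold and 99.3% in the highest, where 7 of 1047 peaks lay outside CTCF. By deciles of MBD3 fragments it was 63.2% in the lowest, 96.7% in decile 7 and 81.2% in the highest. Among the pairs Spearman's rho was 0.647 for the folds and 0.829 for the fragments (n = 9303 pairs, across sites of the same 2 pooled lists, a description). The expected backgrounds had a rho of 0.976, and the part of that shared background in the relation of the fragments was not tested. The CTCF fold was a median of 2.90 times the MBD3 fold of a pair (quartiles 2.27 and 3.52). It was the lower of the pair at 393 sites (4.22%).

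The strongest co-occupied site was 21396 bp outside Ebf2, a transcription factor gene, on chromosome 14, with an MBD3 fold of 32.3 (67211742 to 67212047) and a CTCF fold of 60.6 (67211685 to 67212131), both the highest of the pairs, and summits 2 bp apart. Hepacam2, an adhesion protein gene, followed at 9479 bp with an MBD3 fold of 31.4 and a CTCF fold of 42.9, and summits again 2 bp apart. After Rapgef1 and Nipsnap2 came Ext2, a heparan sulphate polymerase gene, with an MBD3 fold of 25.9 and a CTCF fold of 29.0 at 1169 bp from its end. All 5 sites kept a peak of each protein on days 2, 4 and 6, with MBD3 folds at the Ebf2 site of 10.6, 10.9 and 19 on those days and at the Ext2 site of 9.40, 16.7 and 21.2.

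Some sites ranked high for 1 protein and low for the other. Inside Chmp4c, an ESCRT gene, 343 bp from an end, MBD3 had a fold of 7.03 (rank 837 of its list) and CTCF 2.63 (rank 43607), and inside the synaptic scaffold gene Dlg2 the folds were 6.74 and 3.22. Sites 18894 bp from Ccdc115 (6.33 and 2.28) and 735321 bp from Phf3 (6.40 and 2.63) were alike, with summits 15 to 28 bp apart at all 4. The CTCF peak of these 4 sites was in none of the CTCF lists of days 2, 4 and 6. The other way round, Zfp746, a zinc finger repressor gene, had an MBD3 fold of 2.92 and a CTCF fold of 30.3 (rank 99), at Cbl, a ubiquitin ligase gene, they were 2.56 and 21.8, and at the Sorcs2 site 2.58 and 23.0. Their MBD3 summits lay 604, 535 and 591 bp from the CTCF summit of highest -log10 q, so the MBD3 interval was beside that summit. Whether it lay on a lesser CTCF summit of the same interval was not examined. Inside Lmbrd1, a lysosomal cobalamin exporter gene, the folds were 2.79 and 23.6 and the summits 11 bp apart.

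**Figure D3:**
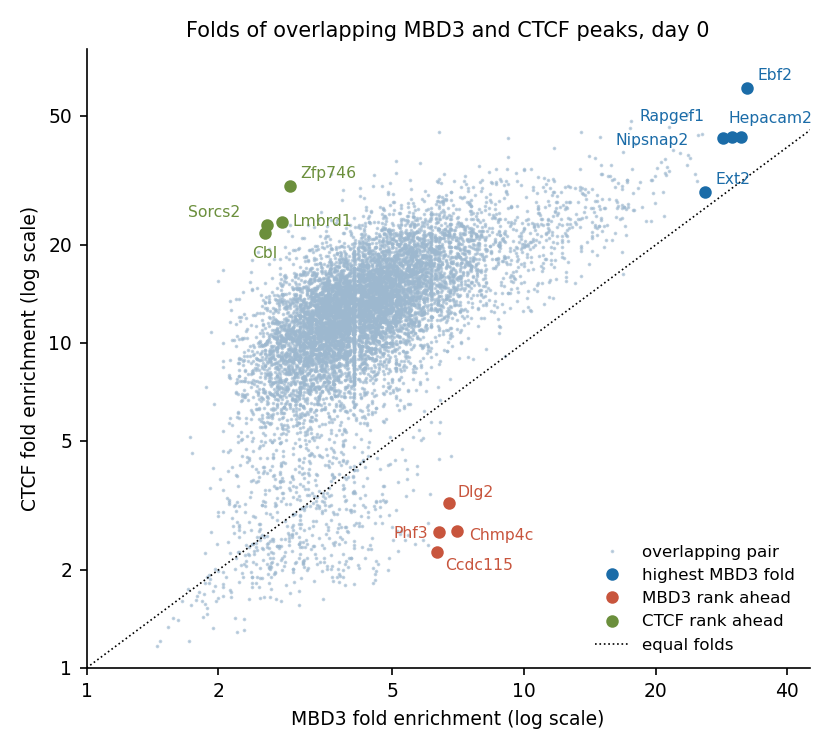
MBD3 fold enrichment (x axis, log scale) against CTCF fold enrichment (y axis, log scale) of the 9303 overlapping pairs of day 0, with named sites in colour and a dotted line at equal folds. Most pairs lie above the line, by a median of 2.90 times, and 393 lie below it.

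The 1166 MBD3 peaks alone were weaker than those with CTCF. Their median distance to the nearest CTCF summit was 13638 bp (11691 to 15269). Of them 7.98% lay within 1 kb of such a summit and 26.1% within 5000 bp. Lack of overlap with CTCF defined this class, and no distance expected of random positions was computed. Whether these peaks lay nearer to CTCF or farther from it than such positions was therefore not tested. A high expected background, over 10 times the lowest level of the list, marked 21.6% of them (252), against 7.89% of the MBD3 peaks with CTCF. Of those 252 peaks 44.8% lay on an annotated pseudogene, and of the other 914 peaks 3.94%. MBD3 peaks with CTCF lay on pseudogenes in 0.860% of cases and CTCF peaks alone in 1.02%. Pseudogenes share sequence with their parent genes, how reads with several matches were handled is not given in the sources used here, and the part of this in these peaks was not tested.

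The MBD3 peaks alone of highest fold were inside Mpdz, a scaffold protein of cell junctions (chromosome 4, 81329573 to 81330511, fold 13.2), and inside the RNA-binding protein gene Rbms3 (chromosome 9, 117220789 to 117221076, fold 12.2). They were followed by a site 32813 bp from Ndufa9, a gene of respiratory complex I (10.2), 1 inside Mocos, a molybdenum cofactor gene (8.98), and 1 inside the imprinted zinc finger gene Peg3 (8.28). The nearest CTCF summits were 78054, 89080, 3076, 2063 and 18958 bp away. No CTCF peak was listed at any of the 5 on later days. At Mpdz the MBD3 folds were 5.68, 17.2 and 39.1 on days 2, 4 and 6, and at Peg3 22.7, 8.21 and 18.8. Ordered by -log10 q instead, a choice made after the values were seen, the list was led by sites of very high background. A peak on the pseudogene Gm15772 on chromosome 5 had 1273 fragments over an expected 444 and a fold of 2.86, and 1 inside Hnrnpd, an RNA-binding protein gene, had 602 over 203 and a fold of 2.95. On day 2 the MBD3 folds of the 5 sites that lead this order ran from 1.78 to 70.1, with 70.1 at Gm15772 and 31.0 at Hnrnpd. The lowest was at a site 311066 bp from Alkbh8 on chromosome 9, with an expected background of 944, where CTCF peaks were listed on days 2, 4 and 6, and the site inside Kctd16 had 2.80 on day 2 and no MBD3 peak on day 6.

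Among the strongest CTCF peaks alone by CTCF fold, those described here lay 11431 bp from Zfp664 (28.6), 71447 bp from Pttg1, the securin gene (27.8), 3874 bp from Gm21190 (27.2) and inside the potassium channel gene Kcnh8 (26.4). Their expected background was 2.87 to 7.30, below the median of CTCF alone (8.07). MBD3 was listed on day 6 at these 4 sites, with folds of 8.02, 3.74, 5.57 and 7.89, and on day 4 near Gm21190 (4.34).

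Near genes the classes differed in how often and where they lay. Of summits, a protein-coding gene's end lay within 1 kb for 18.9% of the MBD3 peaks with CTCF (18.1 to 19.7), 16.0% of those alone (13.9 to 18.2) and 14.6% of the CTCF peaks alone (14.3 to 15.0). The order of both and MBD3 alone turned in 2 alternatives, with 17.9% and 21.7% for summits within 100 bp and 20.8% and 24.4% at a -log10 q of 10 or more. Another 36.5, 35.7 and 43.4% lay deeper inside such genes, and 44.6, 48.4 and 42.0% outside. The CTCF difference depended on strength. In deciles 8 to 10 of CTCF fold 17.2% of the peaks with MBD3 (16.4 to 18.1) and 7.67% of those without (7.07 to 8.31) were near an end, and in deciles 4 to 7 the shares were 19.9% and 8.54%. In the lowest decile the order was the other way, with 33.7% (28.4 to 39.3) with MBD3 and 45.6% (44.1 to 47.1) without. In deciles 2 to 3 it was again 34.9% with MBD3 (29.5 to 40.8) and 16.6% without (15.9 to 17.4), so the turned order was that of the lowest decile.

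Around transcription starts the medians of the classes differed over all summits, but less clearly without sites of high background. Among summits within 1 kb of a start in the promoter table, MBD3 peaks with CTCF had their median 55 bp upstream (-65 to -46, n = 1243), and 63.2% lay upstream (60.4 to 65.8). MBD3 peaks alone had theirs 105 bp downstream (71 to 144, n = 149), with 34.2% upstream (26.7 to 42.4) and 36 of the 149 between 100 and 200 bp downstream. CTCF peaks alone were centred 26 bp downstream (13 to 37, n = 4129), with 46.4% upstream (44.9 to 47.9). Without sites of high background the medians were -60, 52 and 29 bp. The interval of the 104 MBD3 peaks alone then ran from -59 to 121, which holds 0 and the whole interval of CTCF alone (15 to 41). It also overlaps that of MBD3 peaks with CTCF (-70 to -49), so MBD3 alone was not set apart there. Within 1 kb of a 3′ end, 25 of 33 summits of MBD3 alone lay inside the gene (75.8%, 57.7 to 88.9), against 43.2% of 336 MBD3 peaks with CTCF and 46.3% of 1074 CTCF peaks alone. These 3′ end shares were not split by background, so their dependence on sites of high background was not tested.

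**Figure D4:**
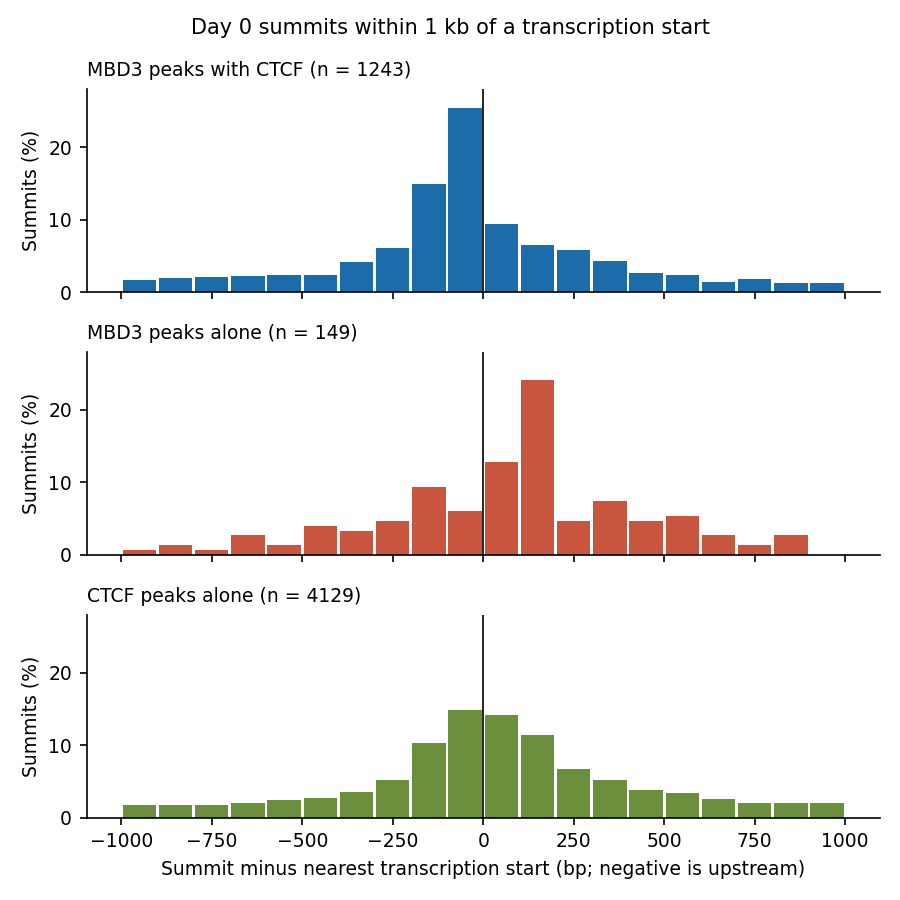
Share of day 0 summits (%) per 100 bp around the nearest transcription start (x axis, bp, negative is upstream), among summits within 1 kb of a start, for MBD3 peaks with CTCF, MBD3 peaks alone and CTCF peaks alone. The highest bar lies from 100 bp upstream to the start for MBD3 with CTCF (25.4%), 100 to 200 bp downstream for MBD3 alone (24.2%) and just upstream for CTCF alone.

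By genes, 1987 of 21887 protein-coding genes had an MBD3 peak within CTCF whose interval reached to within 1 kb of an end (both proteins, 9.08%), 207 had MBD3 alone (0.946%) and 5496 had CTCF alone (25.1%). Of the 207, 36 also held a separate CTCF peak at an end. In all, 2194 genes had MBD3, 7518 had CTCF and 14197 had no peak at an end. At a -log10 q of 10 or more 865 genes had both and 60 MBD3 alone, with a 5 kb window 4074 and 336, and with the CTCF list at the length of the MBD3 list 676 had MBD3 alone and 717 CTCF alone. The gene lists that follow were chosen with earlier results of these data known, and are described by counts against these percentages with no test.

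Among 17 genes of CTCF and the cohesin machinery, 7 had both proteins (41.2%), namely Ctcf, Smc3, Stag2, Pds5a, Pds5b, Esco1 and Zfp143. The share over all protein-coding genes was 9.08%, and the difference was not tested. At Ctcf itself, 374 bp from the 5′ end, MBD3 had a fold of 8.07 and CTCF 18.1, with summits 8 bp apart, and both were present on all later days. Stag2, a cohesin subunit gene on X, had an MBD3 fold of 15.0 and a CTCF fold of 43.1, 13 bp apart. Esco1, which acetylates cohesin, had 8.88 and 31.5, and Pds5b, which regulates cohesin release, 4.52 and 30.4 with summits 1 bp apart. Yy1, a looping factor gene, had MBD3 alone (3.27, 988 bp from the 5′ end) and Maz had CTCF alone (2.33). Another 8 genes, among them Rad21, Smc1a and Nipbl, had no peak at an end, against 14197 of all 21887 protein-coding genes.

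Of 15 NuRD genes, Hdac1 had both proteins (MBD3 fold 2.69, CTCF fold 6.24), Rbbp7 had MBD3 alone and 7 had CTCF alone. These are 6.67, 6.67 and 46.7% of the list, against 9.08, 0.946 and 25.1% of all protein-coding genes. Rbbp7, a histone chaperone gene on X, had an MBD3 fold of 4.51 with 155 fragments over an expected 33.6, and folds of 14.4, 8.30 and 6.92 on days 2, 4 and 6. The CTCF peaks alone were weak, with folds of 1.86 to 3.61, and included the one at the 5′ end of Mbd3 itself (2.31), where MBD3 was found on days 2 and 4 with folds of 3.19 and 2.48. The other chromatin lists held 5 of 21 genes of further remodellers with both proteins, 3 of 21 of the polycomb and trithorax groups and 1 of 18 of DNA methylation. Bptf, the large subunit of NURF, led them with an MBD3 fold of 10.5 and a CTCF fold of 29.6, 3 bp apart. Chd9 and Smarcd1 had CTCF folds of 13.2 and 19 with MBD3 folds of 3.16 and 3.82, and Ep400 had 3.30 for MBD3 and 12.3 for CTCF. The trithorax methyltransferase genes Kmt2b and Kmt2d had MBD3 folds of 4.18 and 3.31, the Kmt2b summits at the same base, and the polycomb gene Cbx2 had 3.38. Ezh2 and Eed, subunits of the polycomb complex PRC2, had MBD3 alone with folds of 4.68 and 3.16, and Mbd1 was the gene of the methylation list with both (3.26 for MBD3 and 11 for CTCF). Another 10 of that list, Tet1, Tet2 and Tet3 among them, had CTCF alone with folds of 1.70 to 3.97.

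Of the 22 core and naive pluripotency genes 0 had both proteins at an end, 2 had MBD3 alone (9.09%), 8 had CTCF alone (36.4%) and 12 had no peak. Over all protein-coding genes the shares were 9.08% for both, 0.946% for MBD3 alone and 25.1% for CTCF alone, and 14197 of 21887 had no peak. Whether counts in so short a list differ from these shares was not tested. Sox2, a core transcription factor gene without introns, had an MBD3 fold of 2.65, 580 bp from its 5′ end, with 181 fragments over an expected 67.7. Dppa5a had 2.13 with 101 over 46.8. Among the CTCF peaks alone of this list Gdf3 had a fold of 8.52 and Tbx3 5.16, and those of the other 6 genes were at most 3.68. Of 11 formative and primed genes, Zic5 had both proteins, with a fold of 3.49 for MBD3 and 3.24 for CTCF and summits 151 bp apart, and its neighbour Zic2 had MBD3 alone (3.88). Sall2 had CTCF alone with a fold of 7.78, and Pou3f1, Lef1, Dnmt3b and Foxd3 with 2.1 to 2.99.

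At lineage genes both proteins lay together at 1 of 16 neuroectoderm genes, 3 of 18 mesoderm and endoderm genes and 3 of 12 trophoblast genes, Eomes being in the last 2 lists. These are 6.25, 16.7 and 25% of short lists, against 9.08% of all protein-coding genes, and the differences were not tested. Mesp1, a cardiac mesoderm factor gene, had an MBD3 fold of 3.92 and a CTCF fold of 17.8 (2 bp apart), Sox17, of endoderm, 3.53 and 18.6 (81 bp), and Eomes 3.84 and 11.6 (616 bp). Tead4 and Krt8 of the trophoblast list had MBD3 folds of 4.09 and 4.31 with CTCF folds of 7.23 each, and Nes, the nestin gene, had 3.14 and 7.49. The neuronal tubulin gene Tubb3 had a CTCF fold of 14.0 and no MBD3 peak on day 0, and an MBD3 fold of 4.12 there on day 6.

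Of 39 Hox genes, which pattern the body axis, 7 had both proteins (17.9%) and 7 CTCF alone (17.9%). Over all protein-coding genes these shares were 9.08% and 25.1%. Hoxc10 had an MBD3 fold of 6.07 with a CTCF fold of 21.7, Hoxc5 6.45 with 15.0, Hoxb8 5.39 with 14.4 and Hoxb5 4.64 with 15.5, and summits were 4 to 12 bp apart. Hoxa5 and Hoxa6 counted through the same pair of peaks. In the Hoxd cluster 4 genes had CTCF alone and no gene had MBD3, with the highest CTCF fold, 7.87, at Hoxd10. At Hoxa9 CTCF alone had a fold of 12.9, and MBD3 was found there on days 4 and 6 with folds of 3.61 and 4.47. Of 25 imprinted protein-coding genes, Peg10 and Sgce, which share a promoter region and the same peaks, had both proteins, with an MBD3 fold of 2.37 and a CTCF fold of 16.5. Another 8 had CTCF alone, led by Magel2 (15.8) and Mest (6.79). Of 5 imprinted noncoding genes only Peg13 had a CTCF peak at an end (5.77) and none had MBD3 there. Peaks farther off at these loci were not counted.

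Among 21 genes of the cell cycle and the p53 response, Trp53, Mdm2 and Mycn had both proteins (14.3%, against 9.08% of all protein-coding genes). Trp53, which encodes p53, had an MBD3 fold of 16.8 with 204 fragments and a CTCF fold of 30.5 with 641, their summits 12 bp apart and 892 bp from its 5′ end. Its MBD3 folds on days 2, 4 and 6 were 5.87, 12.9 and 19.3. Mycn had 6.23 for MBD3 and 12.6 for CTCF, and Mdm2, the ubiquitin ligase gene of p53, 3.21 and 10.9. Cdkn2a had CTCF alone with a fold of 11 on day 0, and MBD3 on day 4 with 2.39. Among 22 cytoskeleton, glycolysis and translation genes of high expression, Rplp0 (9.87 for MBD3, 19.4 for CTCF), Rpl4 and Hspa8 had both proteins (13.6%). Actg1, Eef1a1, Eno1 and Tubb5 had MBD3 alone, with folds of 3.18, 2.54, 2.38 and 1.84. These 4 are 18.2% of the list, against 0.946% with MBD3 alone over all protein-coding genes, and the difference was not tested. The expected background was 7.80 at Actg1 and 41.9 at Tubb5, and Eef1a1 and Tubb5 kept MBD3 on days 2, 4 and 6. Among 17 germline and 2-cell stage genes found, Dazl had both proteins (2.24 for MBD3, 8.94 for CTCF) and 14 had no peak at an end. Over all protein-coding genes 14197 of 21887 had no peak at an end, and the difference was not tested.

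The lists of later days, which took no part in the split, set the classes apart. CTCF was found again at 90.4, 93.0 and 93.2% of the CTCF peaks with MBD3 on days 2, 4 and 6, at 47.7, 65.0 and 67.0% of CTCF alone and at 1.72, 1.37 and 1.2% of MBD3 alone, so hardly any MBD3 peak alone lay where CTCF had a peak on another day. Strength moved with this: among the strongest CTCF peaks, the top decile by fold, 99.9% were found on day 6, with MBD3 and without. In deciles 4 to 7 CTCF was found on days 2, 4 and 6 at 83.7, 92.3 and 93.4% with MBD3. Without MBD3 the shares in these deciles were 57.9, 81.6 and 84.2%. Decile 7 held 819 of the 1618 with MBD3 and 3923 of the 17348 without, so fold was not equal, and its part was not tested. In the lowest decile 7.19% were found on day 6 with MBD3 and likewise without, while MBD3 was found on days 2, 4 and 6 at 16.3, 42.5 and 19% of the 306 with MBD3 and at 0.293, 3.02 and 0.271% of the 4436 without. MBD3 was found again at 8.83, 51.0 and 58.5% of the MBD3 peaks with CTCF on days 2, 4 and 6. At MBD3 alone the shares were 20.9, 25.9 and 18.3%, and the day 6 share was 56.4% at a -log10 q of 10 or more. These split by background, with 80.2, 80.2 and 71.8% of the 252 peaks of high background and 4.6, 10.9 and 3.5% of the other 914. Day 2 had the shortest MBD3 list, with 1991 peaks. The CTCF lists of days 2, 4 and 6 had 28137, 36787 and 38109 peaks, fewer than the 47414 of day 0. The part of list length in the shares found again was not tested.

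CTCF alone of day 0 was in part where MBD3 lay later. MBD3 was found at 0.382, 8.14 and 11.9% of the CTCF peaks alone on days 2, 4 and 6, and at 1.4, 29.8 and 47.7% of the 1353 strongest (top decile by CTCF fold), of which 796 (58.8%, 56.2 to 61.5) had MBD3 on at least 1 later day. With the day 0 CTCF list at the length of the MBD3 list, the day 6 share over all CTCF peaks alone was 50.8%. Seen from the later lists, 7.33, 34.6 and 41.7% of MBD3 peaks on days 2, 4 and 6 overlapped day 0 CTCF alone. The MBD3 lists of days 0 and 6 had 10464 and 10875 peaks and lowest background levels of 1.51 and 1.41, so these lists were close in length and in lowest background. Without replicate lists, how much of this exchange is a change between days and how much is the limit of detection in a weak MBD3 signal was not tested.

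**Figure D5:**
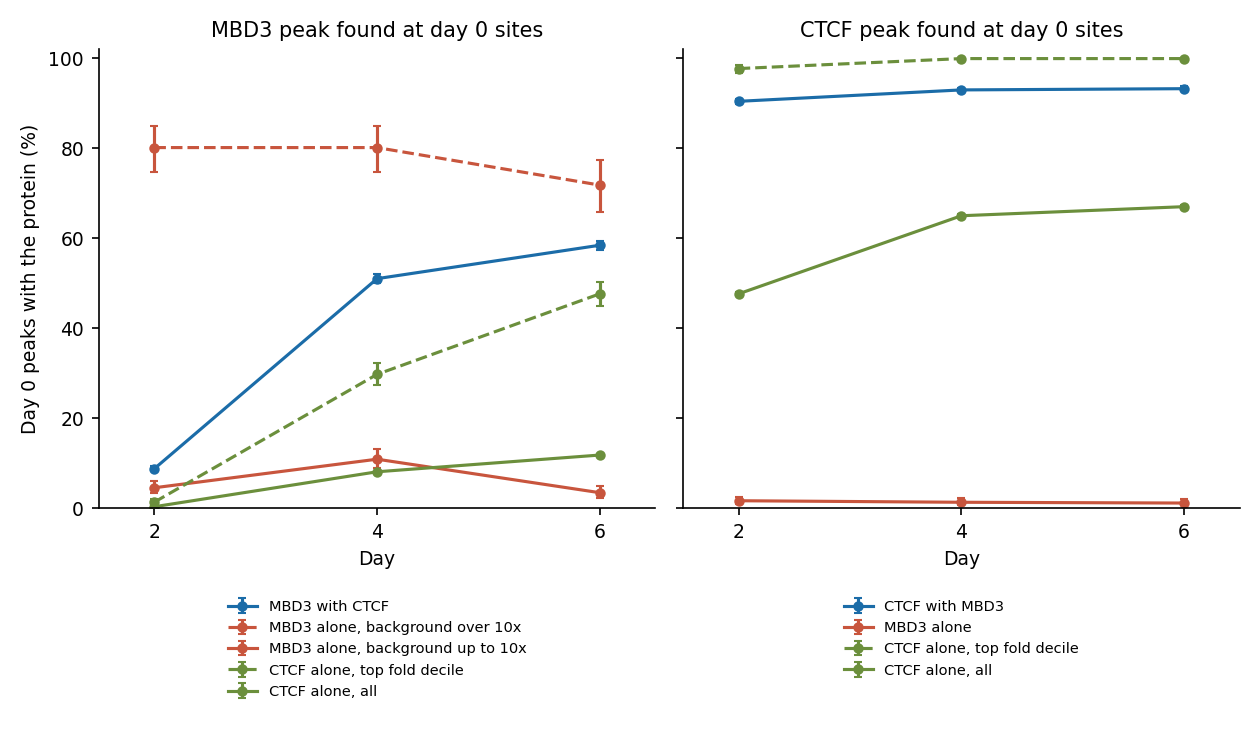
Share of day 0 peaks (%) at which an MBD3 peak (left) or a CTCF peak (right) was found on days 2, 4 and 6 (x axis), by day 0 class; bars are exact 95% binomial intervals and background is given against 10 times the lowest level of the MBD3 list. On day 6 MBD3 was found at 58.5% of MBD3 peaks with CTCF, at 71.8% and 3.5% of MBD3 peaks alone of high and low background, and at 47.7% of CTCF peaks alone of the top fold decile.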

How the data were processed

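The authors deposited 1 peak list per antibody and day. The names of files and peaks show that replicates 1 to 3 were pooled and called against a control. Per the submitters' processing notes, reads were handled with MACS2 2.1.2, bedtools 2.25.0, Bowtie2 2.3.4, SAMtools 1.9 and FastQC 0.11.7 on mm10, with options not given in the sources used here. Each deposited row gives the authors' fold enrichment at the summit (a ratio to the expected background), a -log10 p, a -log10 q (lowest 1.30 on day 0), a score that restates the -log10 q, and a summit offset in bp. These values describe and rank peaks within a list. The columns hold values of the pooled lists and not of single samples.

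Rows with the same interval were merged and kept the summit of highest -log10 q. Fragments and background were recovered from fold and p for over 99.9% of peaks (tolerance 0.01% of -log10 p), 100% of 2355 simulated summits came out right, and the overlap code and bedtools 2.31.1 both counted 1897 pairs on simulated lists. Gene ends were those of RefSeq for GRCm38.p6, with 21887 protein-coding genes and no exons, and strand and starts came from the RefSeq promoter table (17492 genes, none on chromosome 18).

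The members, lists and rules were chosen with earlier results of these data known. Sites named are the 5 of highest MBD3 fold (both, MBD3 alone) or CTCF fold (CTCF alone), the 4 with the largest rank difference each way, the 4 largest summit distances and the 4 of highest MBD3 fold at 0 bp. List genes are named up to 4 per list by MBD3 -log10 q and 2 for CTCF alone by CTCF -log10 q, and others only to make up a count. 1 site that this rule names is not reported here. Alternatives were an overlap of 50%, summits within 100 bp, a -log10 q of 10 or more, a CTCF list of equal length, separate summits, all sequences and a 5 kb window. Scripts ran in Python 3.11.15 with scipy 1.17.1, pandas 2.3.3, numpy 2.4.6 and matplotlib 3.10.9. The p-values in the deposited lists are the authors', and none was computed here.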

Additional observations from a re-analysis of the deposited data

Results flagged for a closer look

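Intervals on the mitochondrial genome, which took no part in the comparisons, were present in both day 0 lists, 14 for MBD3 with folds of 1.50 to 2.01 and 5 for CTCF with folds of 1.16 to 1.57. They were marked because both counts exceed 3, the limit used for a count of 0.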

How the results depend on the processing

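An overlap of at least 50% and the use of all sequences moved none of the 13 and 3 results they touch by more than their interval. With highest summits within 100 bp, 84.0% of MBD3 and 18.5% of CTCF peaks were shared; gene ends lay near 17.9% of both and 21.7% of MBD3 alone (the order turned), 376 genes had MBD3 alone, and on day 6 MBD3 was found at 59.7% of both and 14.7% of MBD3 alone, and CTCF at 94.6% of CTCF with MBD3 and 66.3% of CTCF alone. With a -log10 q of 10 or more these shares were 94.0% and 9.93%, the median summit distance 8 bp, the gene end shares 20.8%, 24.4% and 12.1% for both, MBD3 alone and CTCF alone (turned again), the day 6 shares of MBD3 65.9%, 56.4% and 9.02%, those of CTCF 99.0% with MBD3 and 79.7% alone, and 865 and 60 genes had both and MBD3 alone. With the day 0 CTCF list at the length of the MBD3 list, 63.4% and 62.8% were shared, the distance was 10 bp, 20.2% of both lay near gene ends, MBD3 on day 6 was found at 71.9%, 23.0% and 50.8% of both, MBD3 alone and CTCF alone and CTCF at 99.8% with MBD3 and 99.7% alone, and 676 and 717 genes had MBD3 alone and CTCF alone. With every summit as a peak, 20.6% of CTCF peaks were shared and the distance was 15 bp. With a 5 kb window, 39.7%, 29.6% and 32.3% lay near gene ends and 4074 and 336 genes had both and MBD3 alone. Without peaks of background over 10 times the level, an alternative chosen after seeing the data, 89.6% and 18.3% were shared, 16.7% of both and 14.0% of CTCF alone lay near gene ends, and on day 6 MBD3 was found at 56.8% of both and 7.79% of MBD3 alone and CTCF at 93.9% of CTCF with MBD3. Fewer or wider features enter by construction in these settings; no other cause was tested. No paired analysis was possible because the 3 numbered replicates of each antibody and day were pooled into 1 list. Single replicates could not be left out for the same reason, and the MBD3 median of 20 to 31 fragments over a summit limits what a missing MBD3 peak can show.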
